A study of Homo sapiens with 12 samples.

Results

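Elastic fibre genes were examined as a group of 10 genes, ELN, FBN1, FBN2, MFAP2, LTBP2, FBLN1, FBLN2, FBLN5, EFEMP1 and EFEMP2, in polysome-associated RNA of triple-negative breast cancer (TNBC) cell lines. The genes were chosen by symbol from the 24559 gene symbols of the count table, with the transcripts of each symbol summed, and all 10 had counts. Earlier results of these data were known when the genes were chosen, among them that ELN differed between the BT549 groups, so the differences in BT549 and the levels across the groups are given as a description without a test. Which other values entered the choice is not recorded, so the knockdown calls below are those of a fit across all genes and give no independent support for the choice. Elastic fibres give tissues such as arteries, lung and skin their recoil. Fibrillins assemble into microfibrils outside the cell, tropoelastin (the ELN product) is laid onto them, and lysyl oxidases then crosslink it into insoluble elastin, with fibulins and microfibril-associated proteins bringing the parts together. In tumors these proteins belong mainly to the matrix that stromal cells deposit, although carcinoma cells with mesenchymal traits also express some of them.

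The study asked which mRNAs ribosomes carry when TRMT112, a small partner protein that activates several RNA and protein methyltransferases, is reduced or raised. RNA from pooled polysome fractions of sucrose gradients gave 12 libraries in 6 groups of 2. Cells of the MDA-MB-231 and SUM159 lines carried an empty vector control (EV) or a TRMT112 knockdown (KD, by shRNA according to the study), and BT549 cells carried an empty vector control (EV) or overexpressed TRMT112 (OE), with no treatment listed as a study condition. By the study's methods, cells with knockdown constructs were selected with puromycin and those with overexpression constructs with G418, and cycloheximide was given briefly before lysis to hold ribosomes on mRNA. The media differed between the lines, DMEM/F-12 with 5% serum for MDA-MB-231, the same with insulin and hydrocortisone for SUM159, and RPMI with 10% serum for BT549, so line and medium cannot be told apart. Knockdown was made in 2 lines and overexpression in the remaining line, and no line had both. The libraries held 22954226 to 27434677 expected counts. TRMT112 itself was lower in both KD groups (log2 fold change -1.23 ± 0.0414 SE, adjusted p = 5.10e-16 in MDA-MB-231 and -0.76 ± 0.0372 SE, adjusted p = 1.76e-14 in SUM159) and was higher in BT549 OE (log2 fold change 0.48 ± 0.0397 SE, adjusted p = 1.48e-10; edgeR quasi-likelihood test, Benjamini-Hochberg adjustment over the 16538 genes tested). ESR1 was not among the listed gene symbols, so no level is given for it. PGR was at 0 in every group except BT549 EV, where it reached at most 0.374 CPM (counts scaled to the same library total). ERBB2 lay between 60.5 and 128 CPM. The BT549 groups stood far apart. Between their mean levels 33.3% of genes lay past 2-fold, against 5.36% between the MDA-MB-231 groups, 17.6% between the SUM159 groups and 38.3% to 49.6% between groups of different lines. Whether BT549 EV and OE came from the same stock of cells cannot be settled from the files, so the TRMT112 level and any other difference between these cells cannot be told apart in any OE value below. Nothing states that the 2 libraries of a group came from separate cultures, so every p-value measures the spread between these libraries, which may be technical. Total RNA was not analysed here, so a difference can lie in the amount of an mRNA or in its ribosome loading, and fewer cells making an mRNA cannot be told apart from less mRNA per cell.

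The 10 coding sequences fall into 2 kinds. In ELN (chr7:74027789-74069907, plus strand, GRCh38), glycine codons made up 29.6% of 705 codons and cysteine codons 0.284%, against medians of 6.37% and 2.05% over 19508 protein-coding genes. The other 9 genes had 7.10% (MFAP2) to 12.6% (FBN1) cysteine codons. Their cysteines are known to lie largely in calcium-binding EGF-like repeats, except in MFAP2, which has a matrix-binding domain of its own. The stretch of 30 codons richest in the codon of interest is shown for 4 genes, because the short glycine-rich repeat of tropoelastin and the spaced cysteines of its partners are what sets the proteins apart. Capitals mark glycine codons in ELN (15 of the 30) and cysteine codons in FBN1 and EFEMP2 (6 each) and MFAP2 (5). The ELN stretch lies in exon 20 of ELN-208 at chr7:74056324-74056413, plus strand. The FBN1 stretch lies in exons 3 and 4 of FBN1-201 at chr15:48610792-48613064, the EFEMP2 stretch in exons 5 and 6 of EFEMP2-201 at chr11:65870197-65870584, and the MFAP2 stretch in exons 6 and 7 of MFAP2-202 at chr1:16975651-16976510, all on the minus strand and each with an intron inside the coordinates.
ELN: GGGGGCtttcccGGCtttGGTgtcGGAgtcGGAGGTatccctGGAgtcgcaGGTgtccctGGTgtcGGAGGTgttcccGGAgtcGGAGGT
FBN1: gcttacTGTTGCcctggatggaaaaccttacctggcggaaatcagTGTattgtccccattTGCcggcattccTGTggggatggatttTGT
EFEMP2: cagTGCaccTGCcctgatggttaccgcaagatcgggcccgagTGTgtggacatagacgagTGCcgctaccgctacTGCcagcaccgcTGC
MFAP2: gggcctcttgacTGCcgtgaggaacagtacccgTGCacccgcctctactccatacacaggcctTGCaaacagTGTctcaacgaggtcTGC

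**Figure D1:**
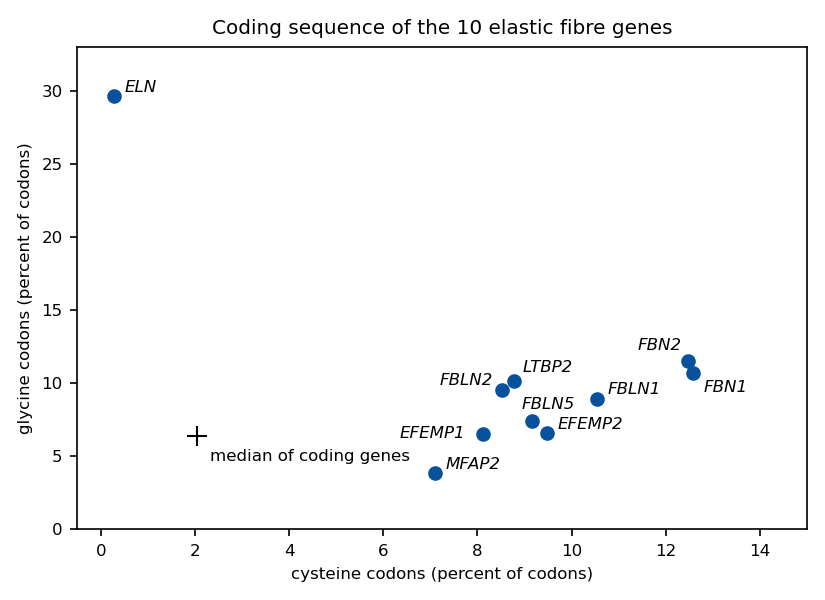
Glycine codons (vertical axis, percent of codons) against cysteine codons (horizontal axis, percent of codons) in the coding sequence of each gene, with the median of 19508 protein-coding genes as a cross. ELN stands alone at 29.6% glycine and 0.284% cysteine codons, and the other 9 genes lie at 7.10% to 12.6% cysteine codons.

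The lines differed in which elastic fibre mRNAs their polysomes held. Per length, in TPM (transcript counts per length, scaled to the same total in each library) computed from the expected counts and the annotated lengths, the 10 genes summed to 81.7 to 98.6 TPM in the 4 MDA-MB-231 libraries, 578 to 695 in SUM159, 509 to 523 in BT549 EV and 1656 to 1705 in BT549 OE. In SUM159 the fibulins led. FBLN1, which codes for a fibulin of elastic fibres and basement membranes, made up 64.9% of the summed TPM in EV and 66.4% in KD, followed by EFEMP1 (21.8% and 14.8%) and FBLN5 (12.5% and 18.2%). In BT549 EV a microfibril gene and FBLN2 led, with MFAP2 at 51.6%, FBLN2 at 32.3% and EFEMP2 at 9.24%. MDA-MB-231 EV held MFAP2 (40.1%), FBLN1 (31.5%) and EFEMP1 (11.7%) at a low total. These shares are means of 2 libraries and describe the lines in their own media. No transcript at 0 in all 4 BT549 libraries is listed. Any transcript found only in the other lines is therefore missing, and levels outside BT549 can be too low. Question marks, read as 0, fell on 7 of 12 listed FBN2 transcripts and 5 of 30 of ELN. They also fell on 1 of 6 of MFAP2 and 1 of 20 of EFEMP2.

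**Figure D2:**
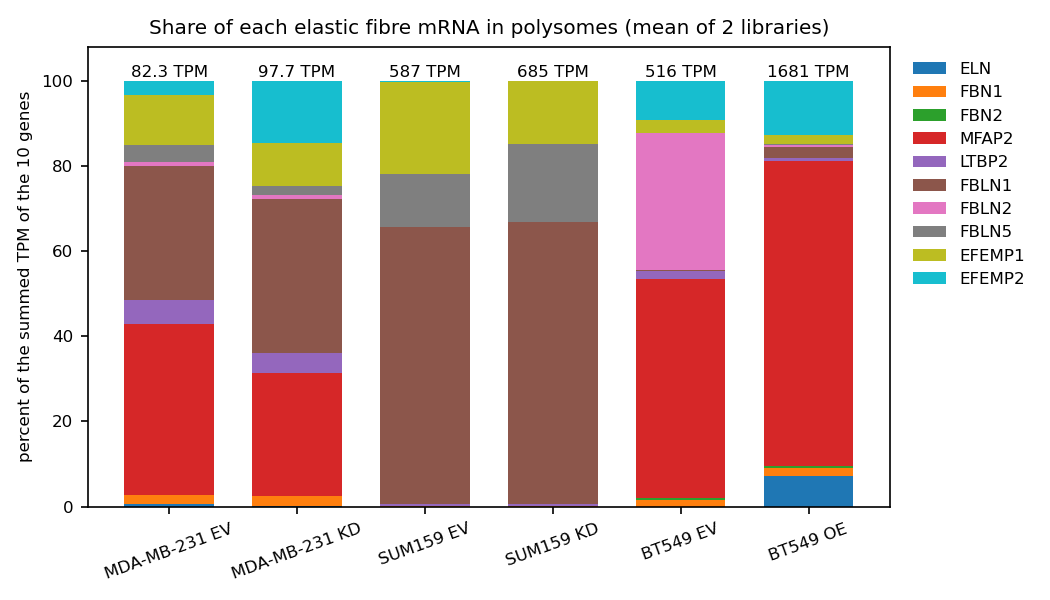
Stacked bars of the share of each of the 10 genes in their summed TPM (vertical axis, percent) for the 6 groups, each the mean of 2 libraries, with the summed TPM printed above. FBLN1 takes 64.9% and 66.4% in the SUM159 groups, MFAP2 takes 51.6% in BT549 EV and 71.8% in BT549 OE, and FBLN2 goes from 32.3% to 0.673% between the BT549 groups.

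In normalized counts (expected counts scaled by edgeR's TMM factors), BT549 OE held the highest mean of 6 genes, ELN, FBN1, FBN2, MFAP2, LTBP2 and EFEMP2. SUM159 KD held the highest of FBLN1 and FBLN5, SUM159 EV that of EFEMP1 and BT549 EV that of FBLN2. Both fibrillin mRNAs were ordered by line. FBN1 (fibrillin-1, chr15:48408313-48645721, minus strand) had 2316 and 2408 normalized counts in BT549 OE, 674 and 739 in BT549 EV, 97.4 and 116 in MDA-MB-231 KD, 98.8 and 92.2 in MDA-MB-231 EV, 52.4 and 59.7 in SUM159 KD and 39.4 and 43.2 in SUM159 EV, and the 2 MDA-MB-231 groups overlapped. FBN2 (fibrillin-2, the fibrillin best known from development, chr5:128257909-128659185, minus strand) had its listed counts mainly in BT549, with 286 and 301 normalized counts in EV and 945 and 884 in OE. It had 1 to 6 counts in the MDA-MB-231 libraries and at most 1 in SUM159, where no fold was formed. Neighbouring groups overlapped in FBN2 among all 4 MDA-MB-231 and SUM159 groups, in MFAP2, FBLN2, EFEMP2 and ELN between the 2 SUM159 groups, and in LTBP2 and EFEMP1 between the 2 MDA-MB-231 groups. Beside these and FBN1, the ranges of the 2 libraries did not overlap between neighbours in the order of any gene, though some gaps were narrow. How often this holds over all genes was not computed. All 10 genes passed the filter on low counts, ELN through MDA-MB-231 EV and BT549 OE alone and FBN2 through the BT549 groups alone.

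**Figure D3:**
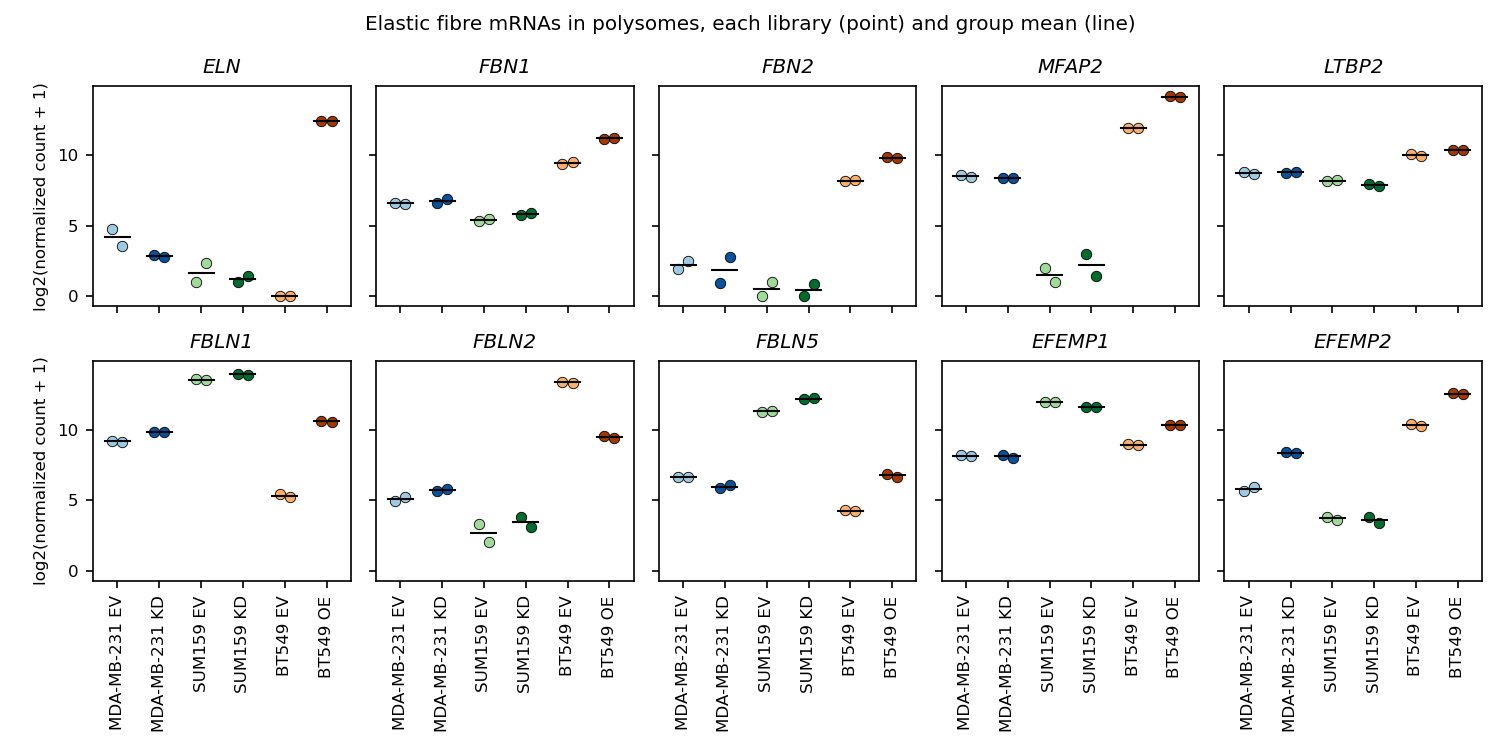
Levels of the 10 genes as log2(normalized count + 1) on the vertical axis for the 6 groups on the horizontal axis, with 1 point per library and a line at the group mean. ELN lies at 5622 and 5563 normalized counts in the 2 BT549 OE libraries and at 0 in both BT549 EV libraries, FBLN2 is the gene that lies lower in BT549 OE than in EV, and FBLN1 and FBLN5 lie highest in SUM159.

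Polysomes of BT549 OE held a different set of elastic fibre mRNAs than those of BT549 EV, with tropoelastin mRNA detected in OE and not in EV. ELN had 0 and 0 counts in the EV libraries and 5077 and 4915 in OE. Taking 3 counts per library as the level that a count of 0 allows, ELN was at least 1693-fold higher in OE (log2 of at least 10.73). The 2 OE libraries were alike and did not overlap with EV, and every MDA-MB-231 and SUM159 library had between 1 and 28 counts. ELN-208 took the most reads of the 30 listed ELN transcripts, at least 25.1% in each OE library. The antisense gene ELN-AS1, which lies across 3383 bases of ELN, had 3.32 and 4.53 normalized counts in OE, 0 in BT549 EV and 44.2 to 57.5 in MDA-MB-231.

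The microfibril genes stood higher in OE with ELN. MFAP2 (microfibril-associated glycoprotein 1, which binds fibrillin and tropoelastin, chr1:16974502-16980632, minus strand) had 4003 and 3879 normalized counts in EV and 18859 and 17649 in OE, a log2 fold change of 2.21 ± 0.0417 SE. In TPM it went from 266 ± 4.08 TPM (SD, n = 2) to 1206 ± 36.0 TPM, the highest level of any of the 10 genes. FBN1 stood 3.34-fold higher in OE (log2 fold change 1.74 ± 0.0695 SE) and FBN2 3.12-fold higher (log2 fold change 1.64 ± 0.124 SE). LTBP2, a protein of the latent TGF-beta binding family that binds fibrillin-1 (chr14:74498183-74612378, minus strand), had 1085 and 962 normalized counts in EV and 1333 and 1325 in OE (log2 fold change 0.38 ± 0.0708 SE). The groups did not overlap in any of these 4 genes, though the share of all genes without overlap was not computed. LTBP2 was the 1 gene of the 10 that differed by less than 2-fold. From its most abundant transcript alone LTBP2 differed by 0.81.

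The fibulins went both ways. FBLN2 (chr3:13549125-13638422, plus strand), a fibulin of basement membranes and elastic fibres, had 10724 and 10364 normalized counts in EV and 763 and 686 in OE, 14.6-fold fewer (log2 fold change -3.86 ± 0.0555 SE). FBLN1 (chr22:45502238-45601135, plus strand) had 41.6 and 36.5 in EV and 1560.3 and 1519 in OE, 39.4-fold more (log2 fold change 5.30 ± 0.0978 SE). The mRNAs of these related proteins changed places. FBLN2 stood at 167 ± 3.10 TPM and FBLN1 at 1.11 ± 0.0454 TPM in EV, against 11.3 ± 0.632 TPM and 43.1 ± 0.800 TPM in OE (SD, n = 2). EFEMP2 (fibulin-4, which tethers lysyl oxidase to tropoelastin, chr11:65866441-65873592, minus strand) had 1349 and 1253 normalized counts in EV and 6156 and 5894 in OE (log2 fold change 2.21 ± 0.0514 SE). FBLN5 (fibulin-5, which binds tropoelastin and integrins, chr14:91869411-91947987, minus strand) had 18.6 and 17.7 in EV and 117 and 101 in OE (log2 fold change 2.58 ± 0.213 SE). EFEMP1 (fibulin-3, chr2:55865967-55924139, minus strand) had 506 and 478 in EV and 1274 and 1273 in OE (log2 fold change 1.37 ± 0.0619 SE). From its most abundant transcript alone EFEMP1 differed by 0.79, less than 2-fold. FBLN5 remained a minor mRNA of BT549 at 2.69 ± 0.210 TPM in OE.

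Of the 10 genes, 8 lay more than 2-fold higher in BT549 OE and 1 more than 2-fold lower, where 19.5% of the 16538 genes lay higher and 18.2% lower by that measure. The median log2 fold change of the 10 genes was 1.98, also with ELN at its bound, and that of all genes was 0.02. Since the genes were chosen with results of this contrast known, nothing is read from that gap. A list of 8 fibroblast and pericyte markers summed to 188 to 191 CPM in BT549 EV and 974 to 976 in OE, with 3 and 7 of the 8 at 1 CPM or more. COL1A2 went from 183 to 186 CPM in EV to 762 to 769 in OE and POSTN from at most 0.492 to 181 to 188, while DCN and LUM were at 0 in EV and had 6.76 to 7.37 and 2.86 to 3.00 CPM in OE. PDGFRA had at most 0.291 CPM in EV and 9.01 to 10.3 in OE, and FAP had 1.31 to 1.58 and 2.46 to 2.47. The other markers of the list moved little, with RGS5 at 2.37 to 2.58 CPM in EV and 2.42 to 2.91 in OE. PDGFRB had 0.205 to 0.332 and 0.417 to 0.520. VIM, a mesenchymal filament gene, had 1772 to 1780 CPM in EV and 645 to 657 in OE, and KRT8 and KRT18 stayed under 1 CPM in both groups. The endothelial list summed to at most 0.0410 CPM in BT549 EV and to 0.209 to 0.347 in OE. The leukocyte list summed to 0.697 to 0.706 CPM in EV and 3.42 to 3.60 in OE. Within it CD14 had 0.457 to 0.533 CPM in EV and 3.25 to 3.47 in OE. The part of these markers and of the general distance between the BT549 groups in the values of the 10 genes was not tested.

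**Figure D4:**
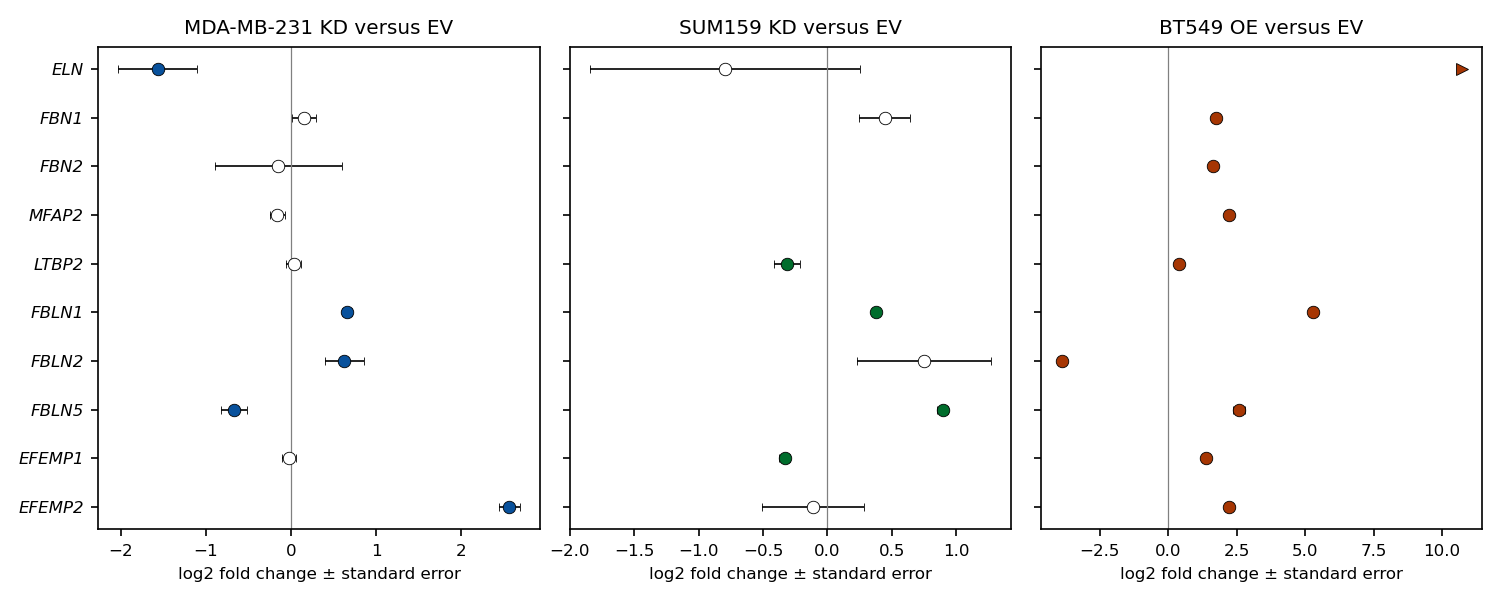
Log2 fold change (horizontal axes, which differ in range) of each gene in the 3 comparisons, with bars of 1 standard error from the fit across all genes. In the KD panels filled points passed the adjusted threshold of 0.05 and open points did not; the BT549 panel carries no test, and the ELN triangle there is the lower bound of 10.73. FBN2 and MFAP2 have no point in SUM159, where the EV libraries had at most 3 counts.

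Knockdown in MDA-MB-231 changed 5 of the 10 mRNAs by the genome-wide test, 3 higher and 2 lower, where 37.7% of all genes tested were called (21.2% higher, 16.5% lower). EFEMP2 rose most, from 49.9 and 61.2 normalized counts in EV to 334 and 324 in KD, 5.93-fold (log2 fold change 2.56 ± 0.122 SE, adjusted p = 1.76e-13). Its share of the summed TPM went from 3.35% to 14.6%. EFEMP2 overlaps MUS81 on the opposite strand by 1213 bases at chr11:65866441-65867653, and MUS81 had 580.4 and 585 normalized counts in EV and 560.2 and 592 in KD. FBLN1 rose from 595 and 562 to 914 and 907 (log2 fold change 0.66 ± 0.0578 SE, adjusted p = 4.64e-09). FBLN5 fell from 97.8 and 97.7 to 57.1 and 65.5 (log2 fold change -0.67 ± 0.152 SE, adjusted p = 0.00106). In all 3 genes both KD libraries lay on the same side of both EV libraries. The share of all genes separated in this way was not computed, so nothing is read from that separation. From its most abundant transcript alone FBLN5 was not called (-0.78 ± 0.349 SE, adjusted p = 0.364).

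The other 2 calls in MDA-MB-231 depended on single libraries. FBLN2 rose from 30.1 and 37.4 to 50.6 and 54.0 (log2 fold change 0.63 ± 0.227 SE, adjusted p = 0.0329), and the call was lost without EV replicate 1 (0.48, adjusted p = 0.216), without KD replicate 1 (0.67, adjusted p = 0.0794) and without KD replicate 2 (0.58, adjusted p = 0.138). It was also lost with library size only (0.54, adjusted p = 0.062), with the line fitted alone (0.61, adjusted p = 0.106) and from its most abundant transcript (0.67 ± 0.439 SE, adjusted p = 0.594). ELN fell from 28 and 12 counts in EV to 7 and 6 in KD (log2 fold change -1.57 ± 0.460 SE, adjusted p = 0.00952), a ratio of summed counts of 0.333 (exact 95% binomial interval 0.163 to 0.636, counting error only). Without EV replicate 1, which held 28 of the 40 EV counts, the difference was -0.82 (adjusted p = 0.311), and without KD replicate 2 it was -1.48 (adjusted p = 0.0634), so 3 of the 10 genes were called in either case. MFAP2 had 390.4 and 352 in EV and 336 and 328 in KD (log2 fold change -0.16 ± 0.0873 SE, adjusted p = 0.167). FBN1, LTBP2 and EFEMP1 gave log2 fold changes of 0.16 ± 0.142 SE, adjusted p = 0.429, 0.03 ± 0.0867 SE, adjusted p = 0.82 and -0.02 ± 0.0841 SE, adjusted p = 0.892. FBN2, with 8 counts in EV and 7 in KD, gave a ratio of 0.897 (exact 95% binomial interval 0.277 to 2.83, counting error only). The adjusted p-values of the main fit are those of edgeR's quasi-likelihood test over 16538 genes. Those of each alternative come from its own fit, adjusted over the genes tested there, or over transcripts for the most abundant transcript alone.

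In SUM159 knockdown changed 4 of the 10, 2 higher and 2 lower, where 60.1% of all genes were called (28.6% higher, 31.4% lower). Of the 3 fibulins that led in this line, FBLN1 and FBLN5 rose and EFEMP1 fell. FBLN1 went from 12185 and 11872 normalized counts in EV to 16176 and 15118 in KD (log2 fold change 0.38 ± 0.0329 SE, adjusted p = 5.81e-10). FBLN5 went from 2459 and 2632 to 4701 and 4766, 1.86-fold (log2 fold change 0.90 ± 0.0457 SE, adjusted p = 4.13e-14). EFEMP1 fell from 3933 and 3944 to 3113 and 3146 (log2 fold change -0.33 ± 0.0426 SE, adjusted p = 3.72e-07), so that FBLN5 took a larger share of the summed TPM than EFEMP1 in KD. LTBP2 fell from 282 and 299 to 247 and 221 (log2 fold change -0.31 ± 0.104 SE, adjusted p = 0.012), a call lost without EV replicate 2 (-0.27, adjusted p = 0.0836) or without KD replicate 2 (-0.23, adjusted p = 0.142). From the most abundant transcript alone the calls of FBLN5 (0.82 ± 0.248 SE, adjusted p = 0.0579), EFEMP1 (-0.39 ± 0.139 SE, adjusted p = 0.103) and LTBP2 (-0.30 ± 0.115 SE, adjusted p = 0.129) were lost. FBN1, at 39.4 and 43.2 in EV and 52.4 and 59.7 in KD, did not pass (log2 fold change 0.45 ± 0.200 SE, adjusted p = 0.0588), though it passed under DESeq2 (0.50, adjusted p = 0.042), with RLE factors (0.50, adjusted p = 0.0346) and with a mean of at least 50 counts (0.47, adjusted p = 0.0373). FBLN2 and EFEMP2 had log2 fold changes of 0.75 ± 0.520 SE, adjusted p = 0.228 and -0.11 ± 0.393 SE, adjusted p = 0.846 at 3 to 13 counts per library. MFAP2 had 3 and 1 counts in EV and 7 and 2 in KD, a ratio of 2.08 (exact 95% binomial interval 0.580 to 9.24, counting error only), and ELN had 1 and 4 and 1 and 2, a ratio of 0.555 (exact 95% binomial interval 0.0861 to 2.85, counting error only).

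The knockdown effects were also compared between the lines, as the log2 fold change in MDA-MB-231 minus that in SUM159, where 50.9% of all genes were called (27.7% higher, 23.2% lower). FBLN5 moved in opposite directions, down in MDA-MB-231 and up in SUM159 (difference -1.57 ± 0.158 SE, adjusted p = 1.26e-08). EFEMP2 rose in MDA-MB-231 and not detectably in SUM159, where it had 11 to 13 counts per library (difference 2.68 ± 0.440 SE, adjusted p = 1.74e-05). FBLN1 rose in both lines and more so in MDA-MB-231 (difference 0.28 ± 0.0667 SE, adjusted p = 0.00124). EFEMP1 differed by 0.31 ± 0.0944 SE, adjusted p = 0.00835, and LTBP2 by 0.35 ± 0.135 SE, adjusted p = 0.0361. The EFEMP1 call was lost without MDA-MB-231 KD replicate 1 (0.20, adjusted p = 0.14) and from its most abundant transcript alone (0.49, adjusted p = 0.235), as was that of FBLN1 from its most abundant transcript (0.32, adjusted p = 0.22). The LTBP2 call was lost with RLE factors (0.31, adjusted p = 0.0583), library size only (0.29, adjusted p = 0.0753), DESeq2 (0.31, adjusted p = 0.0805) and the most abundant transcript (0.14, adjusted p = 0.743). It was also lost without MDA-MB-231 EV replicate 2 (0.28, adjusted p = 0.13), MDA-MB-231 KD replicate 2 (0.30, adjusted p = 0.111), SUM159 EV replicate 2 (0.31, adjusted p = 0.118) or SUM159 KD replicate 2 (0.26, adjusted p = 0.178). Of the 10 genes, FBLN1 was the 1 called higher with KD in both lines. Of all genes tested, 21.2% were called higher in MDA-MB-231 and 28.6% in SUM159. The share called higher in both was not computed, so nothing is read from this count. FBLN1 also stood higher in BT549 OE, where TRMT112 was raised.

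FBLN1 is transcribed into forms with different ends, and their shares in BT549 OE differed from those in MDA-MB-231 and SUM159. Line and OE cannot be told apart here, as BT549 EV had too few counts of both forms. FBLN1-201 (683 codons, fibulin-1C) and FBLN1-202 (703 codons, fibulin-1D) share the first part of their coding sequence, first differ at coding base 1698, and end in separate last exons. The last 60 coding bases are shown because they tell the forms apart, with the stop codon in capitals. They lie in exon 15 of FBLN1-201 at chr22:45563207-45563266 and in exon 17 of FBLN1-202 at chr22:45600387-45600446, both on the plus strand.
FBLN1-201: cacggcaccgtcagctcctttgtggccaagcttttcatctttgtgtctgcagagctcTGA
FBLN1-202: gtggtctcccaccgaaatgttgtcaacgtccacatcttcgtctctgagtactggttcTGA
Of the expected counts of both forms, FBLN1-201 took 62.6% and 64.0% in MDA-MB-231 EV and 64.8% and 62.6% in KD. In SUM159 it took 60.7% and 59.2% in EV and 60.5% and 61.2% in KD. In BT549 OE it took 44.6% and 43.3%, from 599.9 and 549.7 counts against 746 and 719 for FBLN1-202. Per annotated length, the ratio of FBLN1-201 to FBLN1-202 was 2.16 to 2.37 in the MDA-MB-231 libraries, 1.87 to 2.03 in SUM159 and 1.04 and 0.986 in BT549 OE, so the shorter form led in MDA-MB-231 and SUM159 and neither form led in BT549 OE. The 4 KD libraries and the 4 EV libraries of MDA-MB-231 and SUM159 lay between 59.2% and 64.8%, and KD and EV overlapped within each line. In the BT549 EV libraries FBLN1-201 had 20.2 and 8.66 counts and FBLN1-202 had 17.7 and 22.3, too few to place the share (53.3% and 28.0%). Expected counts divide shared reads between transcripts by a model whose error is not given, so these shares carry no test.

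The 250 bases before the annotated start were read for 8 genes, 11 starts in all, from a set of RefSeq promoters (GRCh38.p14). The set used here held no entry for ELN and EFEMP1. Of these, 3 are shown: those of MFAP2 and EFEMP2, which stood higher in BT549 OE, and of FBLN2, which stood lower. Capitals mark the GC box GGGCGG or its reverse complement. Of MFAP2 and FBLN2, which have 2 listed starts each, the start with GC boxes is shown. The MFAP2 start is at chr1:16980621-16980870 on the minus strand, that of EFEMP2 at chr11:65872801-65873050 on the minus strand, and that of FBLN2 at chr3:13548875-13549124 on the plus strand.
MFAP2: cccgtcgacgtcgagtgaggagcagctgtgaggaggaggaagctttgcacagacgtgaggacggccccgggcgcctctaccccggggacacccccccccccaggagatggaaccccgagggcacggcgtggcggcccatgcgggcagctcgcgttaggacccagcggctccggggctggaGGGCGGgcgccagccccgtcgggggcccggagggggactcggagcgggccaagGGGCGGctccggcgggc
EFEMP2: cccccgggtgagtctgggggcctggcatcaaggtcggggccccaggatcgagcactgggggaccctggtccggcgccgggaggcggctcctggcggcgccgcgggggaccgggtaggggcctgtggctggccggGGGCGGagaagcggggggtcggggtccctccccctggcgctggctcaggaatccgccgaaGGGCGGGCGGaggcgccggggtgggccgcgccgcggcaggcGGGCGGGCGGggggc
FBLN2: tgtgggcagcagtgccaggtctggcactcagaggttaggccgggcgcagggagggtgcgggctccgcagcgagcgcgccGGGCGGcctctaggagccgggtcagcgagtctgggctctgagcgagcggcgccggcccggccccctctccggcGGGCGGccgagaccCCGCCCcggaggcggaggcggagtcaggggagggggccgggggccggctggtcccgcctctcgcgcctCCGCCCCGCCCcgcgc
GC content was 76.4% for MFAP2, 81.6% for EFEMP2 and 80.4% for FBLN2, against a median of 58.0% over 35116 promoters. The MFAP2 sequence holds 2 GC boxes, that of EFEMP2 5 and that of FBLN2 5. The other start of MFAP2 (chr1:16981584-16981833) had 46.8% GC and 0 GC boxes, and that of FBLN2 (chr3:13568490-13568739) had 66.0% GC and 0 GC boxes. A GC box on either strand was present in 8 of the 11 starts and in 42.6% of the 35116 promoters. The letters CAGACA (bound by SMAD proteins) were in 0 of the 11 and 13.6% of all promoters, GGAATG (bound by TEAD proteins) in 1, FBN1, and 11.9%, and TATAAA (the TATA box) in 1, FBLN5, and 10.7%, each on either strand. A match of letters is a description, not a site.

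The other genes of elastic fibre formation were taken from a list of 45, of which 42 had counts and 41 were tested. In MDA-MB-231, 12 rose and 2 fell with knockdown, where 37.7% of all genes tested were called (21.2% higher, 16.5% lower). In SUM159, 14 rose and 11 fell, where 60.1% of all genes were called (28.6% higher, 31.4% lower). Called either way, the shares of the list were near those of all genes in both lines. By direction, the calls of the list in MDA-MB-231 leaned higher more than those of all genes, which was not tested. In BT549, 26 were higher and 12 lower in OE, where 70.6% of all genes tested were called (35.6% higher, 35% lower). Among those higher, MFAP5 and ADAMTS10 had at most 3 counts in every MDA-MB-231 and SUM159 library. They passed the filter on low counts through BT549 alone, so nothing is read from the BT549 counts of this list. The lysyl oxidases, which make the crosslinks, and ATP7A, which supplies them with copper, gave 3 higher and 1 lower of 6 in MDA-MB-231, 4 higher and 2 not called in SUM159, and 5 higher and 1 lower in BT549. LOXL1 went from 3832 and 3519.6 normalized counts in SUM159 EV to 14902 and 13602 in KD (log2 fold change 1.95 ± 0.0455, SE, adjusted p = 3.01e-20). LOX went from 1496 and 1485 normalized counts in BT549 EV to 7665 and 7481 in OE (log2 fold change 2.35 ± 0.0457, SE, adjusted p = 1.83e-22). The 16 microfibril and fibre partners tested gave 3 higher and 13 not called in MDA-MB-231, 2 higher and 5 lower in SUM159, and 12 higher and 2 lower in BT549. Not every gene without a call was measured as unchanged. ADAMTS10, BGN, DCN, EMILIN3 and MFAP5 had at most 3 counts in every MDA-MB-231 library. The same held in SUM159 for ADAMTS10, EMILIN3, MFAP5 and the lysyl oxidase LOXL4.

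The 5 integrin genes tested, which code for cell receptors of matrix proteins, gave 2 higher and 3 not called in MDA-MB-231, 3 higher and 1 lower in SUM159, and 4 higher and 1 lower in BT549, where 37.7%, 60.1% and 70.6% of all genes were called. With so few integrin genes nothing is read from these counts. ITGB5 went from 985 and 1038 normalized counts in MDA-MB-231 EV to 1557 and 1563 in KD (log2 fold change 0.62 ± 0.0497, SE, adjusted p = 8.88e-10). In SUM159 it went from 3848 and 3907 normalized counts in EV to 8269 and 7610.1 in KD (log2 fold change 1.03 ± 0.0373, SE, adjusted p = 7.19e-17). ITGB1 went from 12894 and 12890.3 normalized counts in MDA-MB-231 EV to 15824 and 15695 in KD (log2 fold change 0.29 ± 0.0277, SE, adjusted p = 1.66e-08). The 7 proteases tested that can cleave elastin or matrix gave 1 higher and 6 not called in MDA-MB-231, 3 higher and 2 lower in SUM159, and 2 higher and 4 lower in BT549, beside the same shares of all genes. Among those not called, ELANE and MMP2 had at most 3 counts in every MDA-MB-231 library, and MMP9 in every SUM159 library. MMP14, a membrane-anchored matrix protease, went from 1648 and 1664 normalized counts in MDA-MB-231 EV to 2257 and 2212 in KD (log2 fold change 0.43 ± 0.0396, SE, adjusted p = 8.42e-09). In SUM159 it went from 296 and 272 normalized counts in EV to 1157 and 1101 in KD (log2 fold change 1.99 ± 0.0600, SE, adjusted p = 2.59e-18). CTSL, a lysosomal cathepsin, went from 133407 and 131646 normalized counts in BT549 EV to 17059.6 and 16644 in OE (log2 fold change -2.98 ± 0.0264, SE, adjusted p = 6.92e-29). NEU1, a sialidase of the elastin-binding receptor complex, went from 13261 and 12916 normalized counts in BT549 EV to 2442 and 2253 in OE (log2 fold change -2.48 ± 0.0403, SE, adjusted p = 6.00e-24). These 3 genes per comparison were the ones with the smallest p among those that averaged 50 counts or more.

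For ELN and FBN1, the genes most alike in pattern were taken as those with the highest Pearson correlation of log2 CPM over the 12 libraries, among the 12590 genes that averaged 50 counts or more. For ELN these were SRC (r = 0.994), AEBP1 (r = 0.984), RPSA (r = 0.984), HSPB6 (r = 0.980) and MFAP4 (r = 0.975). AEBP1 and MFAP4 code for matrix proteins, and both had group means of at most 15.7 normalized counts outside BT549 OE and of 1105 and 1812 in OE. SRC and RPSA were expressed in every group, with means of 1566 to 2020 and 6952 to 8420 outside BT549 OE and of 3677 and 13025 in OE, so their changes were far smaller than that of ELN. For FBN1 they were C17orf97 (r = 0.992), DPY19L4 (r = 0.991), MRPL13 (r = 0.990), RNF32-DT (r = 0.990) and OTX1 (r = 0.989). Among the 10 genes themselves, the pairs most alike were FBN1 with FBN2 (r = 0.986) and FBN1 with LTBP2 (r = 0.969), and the pair least alike was MFAP2 with FBLN5 (r = -0.861). The 12 points are 6 pairs of libraries from 3 lines, so points of a line share its culture medium, and the correlations are given as a description.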

How the data were processed

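Polysome-associated RNA of 12 libraries was compared in 6 groups, each set by its sample label. The study's methods describe Trimmomatic for trimming, HISAT2 for alignment to GRCh38, SAMtools for removing duplicates, and RPKM and DESeq2 in Partek. The labels name a poly(A) kit, whereas the methods name a stranded kit for rRNA-depleted RNA. The values deposited by the authors are expected counts of Ensembl transcripts and are not normalized. The counting tool, its annotation and its strand setting are not given in the sources used here. The MDA-MB-231 and SUM159 columns hold a question mark in 5.08% of rows, read here as 0, and were recorded as another unit for that reason. No transcript at 0 in all 4 BT549 libraries is listed.

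Transcripts were matched to GENCODE 44 (79.6% of 201932), summed per symbol and rounded. Genes were filtered with filterByExpr, given TMM factors and compared in edgeR 4.0.16 (quasi-likelihood test, 6 group means in 1 fit, 6 residual degrees of freedom) in R 4.3.3. P-values were adjusted by Benjamini-Hochberg over 16538 genes and called at 0.05, and in each alternative over the genes or transcripts tested there. TPM were computed from expected counts and annotated lengths. The fit was tested on simulated data. The elastic fibre genes, the other lists and the tests were chosen with earlier results of these data known. Named genes were all 10 elastic fibre genes, TRMT112, the 3 other pathway genes with the smallest p per comparison, the 5 genes most correlated with ELN and with FBN1, and transcripts with the largest sum or with at least 20% of a gene in both libraries of a group; ELN-AS1, MUS81 and the single markers were named after their values were seen. Alternatives were RLE and unscaled libraries, DESeq2 1.42.0, filters, the marked transcripts left out, each line alone, the most abundant transcript alone, a 2-fold requirement, a replicate block and leaving out each library. Promoters are from RefSeq (GRCh38.p14), coding sequences from GENCODE 44, which need not be the sequence of these lines.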

Additional observations from a re-analysis of the deposited data

Results flagged for a closer look

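The values below stand out because the effect of knockdown differed between MDA-MB-231 and SUM159 by a test of the difference itself (log2 fold change in MDA-MB-231 minus that in SUM159, edgeR, adjusted p under the 0.05 threshold), as it did for 50.9% of all genes tested. Among the elastic fibre genes the difference was 2.68 for EFEMP2, -1.57 for FBLN5, 0.35 for LTBP2, 0.31 for EFEMP1 and 0.28 for FBLN1. FBLN5 is the 1 gene among these that was called in opposite directions in the lines (-0.67 in MDA-MB-231 and 0.90 in SUM159). Among the other pathway genes named above the differences were MMP14 -1.56 (0.43 in MDA-MB-231 and 1.99 in SUM159), LOXL1 -1.47 (0.48 in MDA-MB-231 and 1.95 in SUM159), NEU1 -0.94 (0.23 in MDA-MB-231 and 1.17 in SUM159) and ITGB5 -0.41 (0.62 in MDA-MB-231 and 1.03 in SUM159), all rising more in SUM159. In the other direction they were CTSL 0.47 (0.04 in MDA-MB-231 and -0.44 in SUM159) and ITGB1 0.38 (0.29 in MDA-MB-231 and -0.09 in SUM159). TRMT112 itself differed by -0.47, with the deeper knockdown in MDA-MB-231.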

How the results depend on the processing

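Over 45 results, 606 values were recomputed under alternatives, of which 543 were scored as the same, and no value past the threshold reversed. Of these, 456 single-gene values kept their direction and their side of the threshold, or in BT549 their direction with a move within the spread. The other 87 were counts of genes, scored as the same if they lay within a set ratio of the main count. Leaving out each library in turn, the number of elastic fibre genes called was 3 to 5 in MDA-MB-231, 3 to 4 in SUM159 and 4 to 5 for the difference, and the number past 2-fold in BT549 stayed at 9. Of the other pathway genes 12 to 15, 20 to 24 and 36 to 37 were called in MDA-MB-231, SUM159 and BT549. Requiring also a log2 fold change of at least 1, 2 elastic fibre genes were called in MDA-MB-231, 0 in SUM159 and 2 for the difference, and 0 and 13 of the other pathway genes in MDA-MB-231 and SUM159. The values that reversed were all below the threshold. In MDA-MB-231 they were LTBP2 with library size only (-0.056), from its most abundant transcript (-0.16) and over left-out libraries (-0.0353 to 0.108), EFEMP1 from its most abundant transcript (0.096) and over left-out libraries (-0.130 to 0.0802), and FBN2 over left-out libraries (-1.85 to 0.63). In SUM159 they were ELN (-1.45 to 0.42), MFAP2 (-0.21 to 1.93) and EFEMP2 (-0.34 to 0.12) over left-out libraries, with ELN and MFAP2 at 1 to 7 counts per library, where a fitted value is no bound. For the difference they were MFAP2 (-2.09 to 0.0486) and FBLN2 (-1.09 to 0.46) over left-out libraries, and FBLN2 from its most abundant transcript (0.66). EFEMP2 in SUM159 gave -5.93 from its most abundant transcript (adjusted p = 6.51e-04), against -0.11 from all transcripts. That transcript, EFEMP2-201, had only 5.56 and 8.79 expected counts in EV and 0.231 and 2.25e-05 in KD. EFEMP2-217 had 3.50 and 1.25e-04 in EV and 5.49 and 5.89 in KD. At such counts the fitted value is no bound, and nothing is read from it. The other calls gained or lost are given beside their results, with their log2 fold changes. MFAP2 in MDA-MB-231 passed with library size only (-0.25, adjusted p = 0.0208). The cause was not tested. With the replicate number as a replicate block, 6217, 9831 and 11581 genes were called in MDA-MB-231, SUM159 and BT549 against 6240, 9933 and 11677 without it, and 5, 4 and 5 elastic fibre genes in MDA-MB-231, in SUM159 and for the difference. The deviations of same-numbered libraries correlated at 0.02, -0.02 and 0.004 over 12590 genes, so no effect shared by same-numbered libraries was seen. Whether such libraries were prepared together cannot be told from these values. Depth limits ELN, FBN2, MFAP2, FBLN2 and EFEMP2 in SUM159 and ELN and FBN2 in MDA-MB-231, which had few counts there.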

Other observations

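The transcripts that made up a gene's counts also differed between the BT549 groups for some elastic fibre genes. LTBP2-202, annotated as a target of nonsense-mediated decay, took 38.0% and 29.5% of the LTBP2 counts in BT549 EV and 13.2% and 15.3% in OE, while the protein-coding LTBP2-201 took 59.4% and 65.9% and 83.7% and 83.3%. The libraries of the groups did not overlap. EFEMP1-201 and EFEMP1-202 have coding sequences of the same length. EFEMP1-201 took 18.0% and 9.16% of the EFEMP1 counts in EV and 45.3% and 43.9% in OE, and EFEMP1-202 took 61.1% and 66.0% and 41.7% and 42.5%. In contrast, MFAP2-202 took 90.8% and 90.6% of the MFAP2 counts in EV and 92.3% and 92.6% in OE, and FBLN2-201 took 79.6% and 79.9% and 80.9% and 82.9% although FBLN2 itself was far lower in OE. FBN1-204, annotated as a target of nonsense-mediated decay, took 50.8% and 67.6% of the FBN1 counts in BT549 EV and 53.6% and 59.4% in OE, more than the protein-coding FBN1-201 (29.6% and 24.9%, and 18.3% and 14.7%). These shares rest on the division of shared reads by the authors' counting and were not tested.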
